A study of Arabidopsis thaliana with 24 samples.

Results

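The genes described here are 10 jasmonate synthesis and response genes of Arabidopsis thaliana, taken by locus identifier from all 3 deposited count tables, in every group and on both alleles, out of 33602 genes in each table. They are the synthesis genes LOX2 (AT3G45140), AOS (AT5G42650) and OPR3 (AT2G06050), the regulators JAZ1 (AT1G19180), JAZ10 (AT5G13220) and MYC2 (AT1G32640), and the response genes VSP1 (AT5G24780), VSP2 (AT5G24770), CORI3 (AT4G23600) and PDF1-2A (AT5G44420). All 10 were found in each table and were past the filter on low counts in the parental libraries. In the F1 libraries 9 were past it, and JAZ10 was not.

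Jasmonates are oxylipin hormones of wounding, defence and development. In the chloroplast, lipoxygenases such as LOX2 and the allene oxide synthase AOS turn linolenic acid into the precursor OPDA, which the reductase OPR3 reduces in the peroxisome. Jasmonoyl-isoleucine then brings JAZ repressors to the receptor COI1 for degradation, which frees MYC2 and related factors. MYC2 favours wound-type targets such as the vegetative storage protein genes VSP1 and VSP2, while the defensin gene PDF1-2A answers to jasmonate together with ethylene through ERF factors that bind the GCC-box.

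The libraries came from polyadenylated RNA of entire seedlings of 9 days in 8 groups of 3. Per the labels, all were stratified for 4 days at 4 °C and grown at 22 °C. Seedlings carrying prmt5-5, a mutant allele of the arginine methyltransferase gene PRMT5, and wild-type (WT) seedlings were compared in the accession Landsberg erecta (Ler), in the accession Columbia (Col) and in the reciprocal hybrids F1 Ler x Col and F1 Col x Ler, where each hybrid had 2 parents of 1 genotype. The labels state that prmt5-5 arose in Col and reached Ler by 7 generations of backcrossing. Mutant Ler plants thus carry Col sequence at PRMT5 and may carry more of it elsewhere. Which accession gave the seed in each cross is not taken here from the name order.

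The parental libraries held 36993754 to 72714639 counts and the F1 libraries 6047694 to 29376408 counts assigned to an allele. The PRMT5 transcript had 29.7 to 37.2 normalised counts (CPM, counts scaled to library size by TMM) in the 6 prmt5-5 parental libraries and 29.9 to 34.7 CPM in the 6 WT ones. Its level therefore did not separate the genotypes, but the Ler allele had 0.189% of 1057 PRMT5 counts in prmt5-5 F1 and 53.1% of 1046 in WT F1. Around each of the 10 jasmonate genes the 20 nearest genes with enough allele counts had a median Ler share of 48.6% to 51.8% in prmt5-5 F1, against 47.1% to 51.3% in WT F1, so no Col segment was seen there. Nothing in the labels tells whether replicates of a group were grown separately, so the p-values cover the spread among these libraries, which may be technical. In RNA of entire seedlings, fewer cells of a type and less RNA per cell cannot be told apart.

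The promoters of the response genes that moved most in the parents are shown to compare which jasmonate motifs, if any, they hold. They are the 300 bases upstream of the RefSeq gene start in the Col reference (TAIR10.1, minus strand), with VSP1 at chr5:8509202-8509501, VSP2 at chr5:8502225-8502524 and PDF1-2A at chr5:17907639-17907938. Capitals mark matches to the G-box (CACGTG) and T/G-box (AACGTG, printed as CACGTT where it lies on the other strand), which MYC2 binds, and to the GCC-box (GCCGCC). Both strands were searched, and the 3 motifs do not overlap in these windows.
VSP1: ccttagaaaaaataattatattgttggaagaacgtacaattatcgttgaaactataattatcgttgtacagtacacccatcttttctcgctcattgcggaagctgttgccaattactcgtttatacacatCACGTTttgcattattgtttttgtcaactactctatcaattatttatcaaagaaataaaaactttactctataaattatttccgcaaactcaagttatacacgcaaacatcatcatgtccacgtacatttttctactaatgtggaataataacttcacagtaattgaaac
VSP2: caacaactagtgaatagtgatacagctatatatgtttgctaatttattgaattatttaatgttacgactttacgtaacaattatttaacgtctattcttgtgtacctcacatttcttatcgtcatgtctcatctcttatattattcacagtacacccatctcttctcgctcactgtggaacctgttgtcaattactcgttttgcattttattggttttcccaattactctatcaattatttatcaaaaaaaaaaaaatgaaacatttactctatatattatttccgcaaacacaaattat
PDF1-2A: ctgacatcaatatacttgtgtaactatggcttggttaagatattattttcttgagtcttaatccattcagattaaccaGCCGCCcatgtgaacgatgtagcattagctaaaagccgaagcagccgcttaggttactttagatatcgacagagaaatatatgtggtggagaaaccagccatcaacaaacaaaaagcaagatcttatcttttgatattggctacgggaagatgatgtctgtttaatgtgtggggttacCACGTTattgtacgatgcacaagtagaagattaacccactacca
VSP1 had 1 T/G-box, PDF1-2A had 1 GCC-box and 1 T/G-box, and VSP2 had none of the 3 motifs in this window. Among the other members, AOS had a G-box and MYC2 a T/G-box, and LOX2, OPR3, CORI3, JAZ1 and JAZ10 had none. Of 27443 promoters of the same length, 7.09% held the G-box, 8.71% the T/G-box and 2.26% the GCC-box. A match describes the letters of the Col reference and is no evidence of binding, and the Ler sequence was not analysed here.

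The first question was how prmt5-5 changes the 10 genes in each parental accession. In Ler, prmt5-5 seedlings had lower VSP1, VSP2 and PDF1-2A and higher OPR3 than WT. In Col, prmt5-5 seedlings had lower VSP1 and VSP2 and higher JAZ1. The counts were 4 of 10 past the threshold in Ler (1 higher, 3 lower), where 35.7% of 22907 genes tested were called (19.1% higher, 16.7% lower), and 3 of 10 in Col (1 higher, 2 lower), where 26.8% were called (14.7% higher, 12.1% lower). Both shares of the members lie near those of all genes. The threshold throughout was an adjusted p under 0.05 (edgeR's quasi-likelihood test, Benjamini-Hochberg over all genes tested, two-sided), and changes are log2 values of prmt5-5 over WT with their standard errors (SE).

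Of the synthesis genes, OPR3 responded most in Ler. It had 33.9, 49.2 and 45.8 CPM in Ler prmt5-5 against 27.4, 29.3 and 28.1 CPM in Ler WT. All 3 mutant libraries lay above all 3 WT libraries, and OPR3 rose by 0.60 (SE 0.11, adjusted p = 0.000916), a call kept under all 16 alternatives. In Col, OPR3 had 65.8, 58.1 and 57.4 CPM in prmt5-5 and 50.5, 47.7 and 50.8 CPM in WT. The groups did not overlap there either, but the change of 0.28 (SE 0.11) did not pass the test (adjusted p = 0.0702), and it did pass without Ler prmt5-5 replicate 1 or without replicate 2. LOX2 averaged 828 ± 283 CPM in Ler prmt5-5 and 649 ± 211 CPM in Ler WT, and 1778 ± 274 CPM in Col prmt5-5 and 1290 ± 261 CPM in Col WT (SD, n = 3 each). The groups overlapped in Ler, and in Col every mutant library (1585 to 2091 CPM) lay above every WT library (1027 to 1548 CPM), but neither change passed the test (0.35, adjusted p = 0.375 in Ler; 0.46, adjusted p = 0.265 in Col). AOS, the enzyme after LOX2, averaged 148 ± 17.6 CPM in Ler prmt5-5 and 177 ± 25.0 CPM in Ler WT, against 248 ± 12.2 CPM in Col prmt5-5 and 210 ± 26.4 CPM in Col WT (SD, n = 3 each). The groups overlapped in Ler and not in Col. The changes of AOS had opposite signs, -0.26 in Ler (adjusted p = 0.109) and 0.24 in Col (adjusted p = 0.159), and neither passed the test. Without Ler WT replicate 3 the change in Ler was -0.37 and passed (adjusted p = 0.0335).

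The regulators moved little. JAZ1, a repressor that is itself induced by jasmonate, had 22.0, 15.8 and 18.1 CPM in Col prmt5-5 against 12.7, 15.4 and 13.0 CPM in Col WT. All mutant libraries were above all WT libraries, with a rise of 0.45 (SE 0.15, adjusted p = 0.0363). That call was lost without Col WT replicate 1 (adjusted p = 0.119) or 3 (0.114), and without Col prmt5-5 replicate 1 (0.163) or 3 (0.0669). In Ler, JAZ1 had 17.4, 19.5 and 18.1 CPM in prmt5-5 and 15.3, 22.2 and 15.8 CPM in WT, and its change was 0.04 (SE 0.14, adjusted p = 0.839). JAZ10, a repressor whose splice forms differ in stability, was scarce in all parental groups at 2.09 to 5.03 CPM. It had 3.81, 3.37 and 5.03 CPM in Ler prmt5-5 against 3.24, 2.78 and 2.90 CPM in Ler WT. These groups did not overlap, but the change of 0.45 (SE 0.18) did not pass the test (adjusted p = 0.0664), and it passed without Ler prmt5-5 replicate 2. In Col its change was 0.03 (adjusted p = 0.929). MYC2 lay between 54.3 and 75.9 CPM in all 12 parental libraries, with changes of -0.19 in Ler (adjusted p = 0.131) and 0.17 in Col (adjusted p = 0.184).

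The vegetative storage protein genes, which encode acid phosphatase-like proteins of leaves and flowers, fell in both accessions. VSP2 had 20.5, 22.6 and 20.6 CPM in Ler prmt5-5 against 42.5, 38.0 and 40.1 CPM in Ler WT. In Col it had 203, 188 and 160 CPM in prmt5-5 against 381, 232 and 282 CPM in WT. In each accession every mutant library was below every WT library. VSP2 fell by 0.92 in Ler (SE 0.15, adjusted p = 0.00041) and by 0.70 in Col (SE 0.14, adjusted p = 0.00297), and both calls were kept under all 16 alternatives. VSP1 had 10.2, 15 and 12.5 CPM in Ler prmt5-5 against 24.2, 28.8 and 27.5 CPM in Ler WT, and fell by 1.09 (SE 0.19, adjusted p = 0.00104), again a call kept under all 16. In Col, VSP1 had 47.8, 37.8 and 32.2 CPM in prmt5-5 against 73.3, 49.3 and 52.8 CPM in WT. These groups did not overlap, and VSP1 fell by 0.58 (SE 0.18, adjusted p = 0.0351). The call in Col was lost under 6 alternatives: the replicate block, no filter on low counts, and the removal of Col WT replicate 1 (change -0.38, adjusted p = 0.134), Col prmt5-5 replicate 2 (0.0938), Col prmt5-5 replicate 3 (0.12) or Ler prmt5-5 replicate 3 (0.0511). The coding sequences of VSP1 and VSP2 are 88.1% identical and share no exact run of 100 bases over the exons of VSP2. The handling of reads close to both genes is not known here.

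The other response genes differed from the VSP genes. CORI3, which encodes a cystine lyase induced by the jasmonate mimic coronatine, averaged 83.9 ± 7.47 CPM in Ler prmt5-5 and 96.7 ± 11.2 CPM in Ler WT, and 126 ± 21.9 CPM in Col prmt5-5 and 116 ± 16.9 CPM in Col WT (SD, n = 3 each). The groups overlapped in both accessions, with changes of -0.21 in Ler (adjusted p = 0.259) and 0.11 in Col (adjusted p = 0.573). PDF1-2A, a secreted antifungal defensin gene, had 2.81, 2.00 and 2.02 CPM in Ler prmt5-5 against 5.15, 30.8 and 32.2 CPM in Ler WT. Every mutant library was below every WT library, though Ler WT replicate 1 was far below the other two, and PDF1-2A fell by 3.30 (SE 0.83, adjusted p = 0.0143). That call was lost without Ler prmt5-5 replicate 2 (adjusted p = 0.0539) or 3 (0.0535). In Col both groups were spread and overlapped, with 22.9, 14.9 and 7.65 CPM in prmt5-5 and 5.95, 27.0 and 20 CPM in WT. The change in Col was -0.22 (SE 0.73, adjusted p = 0.859).

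**Figure D1:**
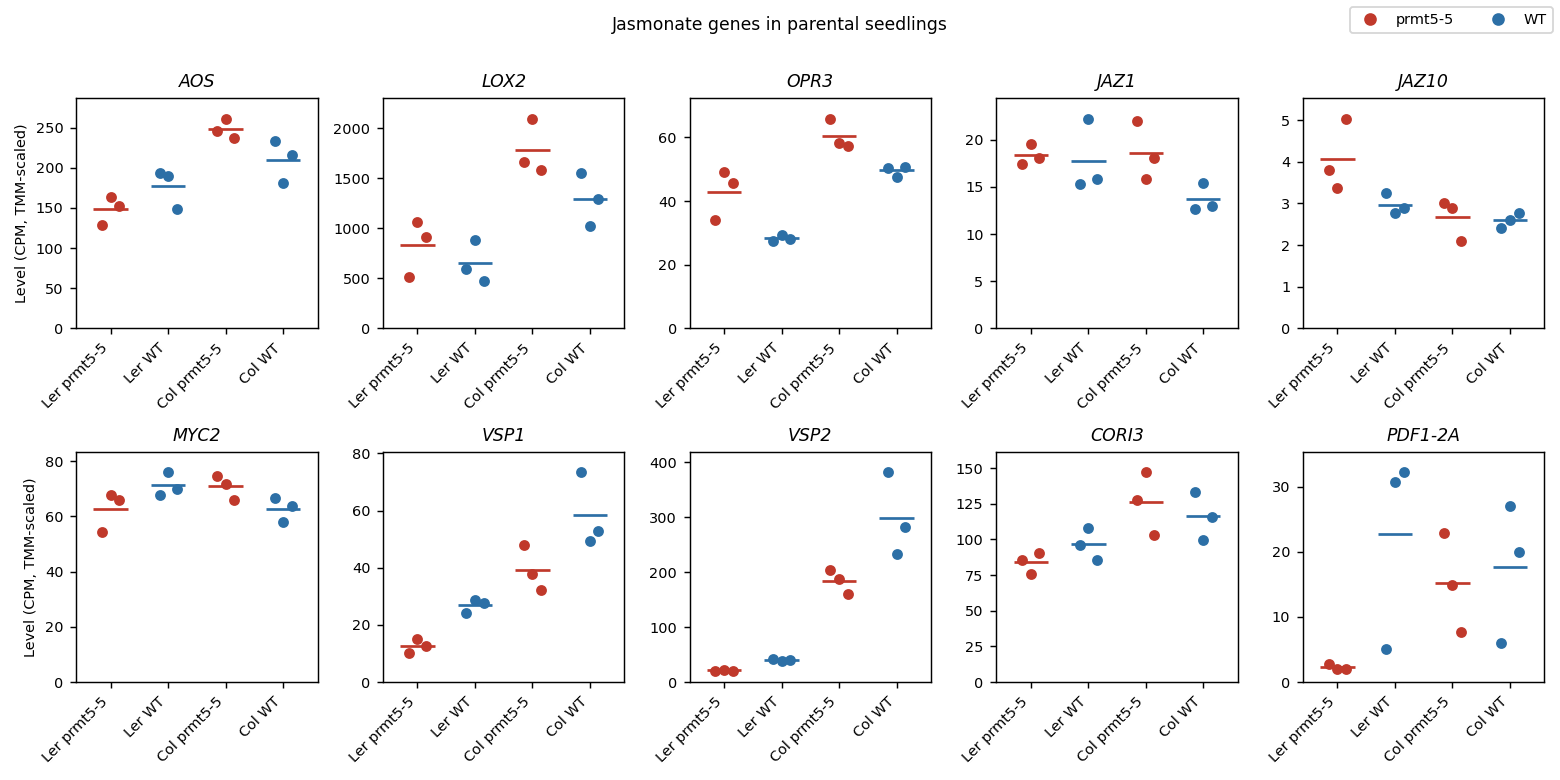
Levels of the 10 genes (CPM, TMM-scaled, linear axes from 0) in the 3 libraries of each parental group, with the group mean as a line. VSP2 lies at 20.5 to 22.6 CPM in Ler prmt5-5 and 38.0 to 42.5 CPM in Ler WT, far under both Col groups (160 to 381 CPM).

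Whether the mutant effect differs between the accessions was asked by the interaction, the Ler change less the Col change. Of the 10 members 0 passed (3.35% of all genes did, 1.6% higher and 1.75% lower), 3 had an unadjusted p under 0.05, and DESeq2 called 1. The 3 were PDF1-2A (-3.08, SE 1.1, adjusted p = 0.181), AOS (-0.50, SE 0.17, adjusted p = 0.131) and MYC2 (-0.36, SE 0.13, adjusted p = 0.154). DESeq2 called PDF1-2A (adjusted p = 0.0434), and OPR3 passed without Ler prmt5-5 replicate 1 (0.47, adjusted p = 0.0106). The larger falls of VSP1 and VSP2 in Ler were not shown to differ from those in Col (VSP1 -0.52, SE 0.26, adjusted p = 0.33; VSP2 -0.22, SE 0.20, adjusted p = 0.634).

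The accessions themselves differed more than the genotypes did for several members. In prmt5-5, 8 of 10 members differed between Ler and Col, 7 lower and 1 higher in Ler, where 28% of all genes were called (14% each way). In WT, 4 of 10 differed, all lower in Ler, where 29.8% were called (14.5% higher, 15.2% lower). VSP2 was lower in Ler by 3.11 on the log2 scale in prmt5-5 (SE 0.16, adjusted p = 3.08e-09) and by 2.89 in WT (SE 0.15, adjusted p = 6.09e-09), and the values above show no overlap between the accessions. VSP1 was lower in Ler by 1.64 in prmt5-5 (SE 0.19) and by 1.13 in WT (SE 0.18). LOX2 was lower in Ler by 1.1 in prmt5-5 (SE 0.29, adjusted p = 0.0161) and by 0.99 in WT (SE 0.29, adjusted p = 0.0246), and OPR3 by 0.49 (SE 0.11) and 0.81 (SE 0.11). The LOX2 call in prmt5-5 was lost without Col prmt5-5 replicate 2 (adjusted p = 0.0543), and in WT it was lost without Col WT replicate 1 (0.0877), Col WT replicate 3 (0.0608), Ler WT replicate 1 (0.0757) or Ler WT replicate 3 (0.0765).

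AOS, CORI3, PDF1-2A and JAZ10 passed the accession test in prmt5-5 and not in WT. AOS was at -0.74 in prmt5-5 (SE 0.12, adjusted p = 0.000326) and -0.25 in WT (adjusted p = 0.145). CORI3 was at -0.59 in prmt5-5 (SE 0.14, adjusted p = 0.00502) and -0.27 in WT (adjusted p = 0.157). PDF1-2A was at -2.72 in prmt5-5 (SE 0.83, adjusted p = 0.038) and 0.37 in WT (adjusted p = 0.761). JAZ10, the member that was higher in Ler, was at 0.62 in prmt5-5 (SE 0.18, adjusted p = 0.0199) and 0.20 in WT (adjusted p = 0.471). The difference between the genotypes is the interaction above, which none of these 4 passed. The PDF1-2A call in prmt5-5 was lost under 8 of 16 alternatives, among them the removal of Col WT replicate 3 (adjusted p = 0.0531), of Col prmt5-5 replicate 1 (0.107) or 2 (0.0728), or of Ler prmt5-5 replicate 1 (0.0871), 2 (0.112) or 3 (0.107). JAZ1, at 0.38 in WT (SE 0.15, adjusted p = 0.0672), passed with DESeq2 (0.0462) and without Col WT replicate 2 (0.0472), Ler WT replicate 1 (0.0339) or Col prmt5-5 replicate 1 (0.0481). JAZ10 was lost without Col prmt5-5 replicate 3 (0.0996) or Ler prmt5-5 replicate 3 (0.104).

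The wider pathway was read from 59 other jasmonate genes, of which 57 were tested in the parents. In Ler 5 rose and 8 fell, beside 19.1% and 16.7% of all genes tested, and in Col 3 rose and 5 fell, beside 14.7% and 12.1% of all genes tested. Counts of single lists below are to be read against the same shares. The median change of these lists was -0.05 in Ler and 0.06 in Col, against 0.01 over all genes in each. Among the synthesis genes, 0 rose and 1 of 14 fell in Ler, and 1 rose and 0 fell in Col. AOC2, an allene oxide cyclase, averaged 286 ± 27.0 CPM in Col prmt5-5 and 172 ± 21.0 CPM in Col WT (SD, n = 3 each) and rose by 0.74 (SE 0.18, adjusted p = 0.00973), while its change in Ler was -0.14 (adjusted p = 0.588).

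Among the conjugation and turnover genes 1 rose and 1 of 12 fell in Ler, and 2 rose and 1 fell in Col. CYP94B1, a cytochrome P450 that oxidises jasmonoyl-isoleucine, averaged 1.32 ± 0.265 CPM in Ler prmt5-5 and 4.38 ± 0.805 CPM in Ler WT (SD, n = 3 each). It fell by 1.75 in Ler (SE 0.20, adjusted p = 2.85e-05) and by 0.72 in Col (SE 0.19, adjusted p = 0.0136). JOX1 and JOX2, which hydroxylate jasmonic acid, rose in Col by 2.49 (SE 0.51) and 0.69 (SE 0.16), and both passed the interaction (JOX1 -2.75, adjusted p = 0.0224; JOX2 -0.87, adjusted p = 0.0462). JOX1 was scarce, with 0.272 ± 0.106 CPM in Col prmt5-5 and 0.0482 ± 0.0176 CPM in Col WT (SD, n = 3 each).

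Among the perception and repression genes 3 rose and 2 of 12 fell in Ler, and 0 rose and 2 fell in Col. JAZ3, a repressor of the same family as JAZ1, averaged 10.6 ± 0.701 CPM in Ler prmt5-5 and 18 ± 1.88 CPM in Ler WT, and 11.9 ± 0.995 CPM in Col prmt5-5 and 17.4 ± 1.27 CPM in Col WT (SD, n = 3 each). It fell by 0.77 in Ler (SE 0.10, adjusted p = 5.56e-05) and by 0.54 in Col (SE 0.10, adjusted p = 0.0011), so different JAZ genes went in opposite directions, since JAZ5 rose in Ler by 0.97 (SE 0.27, adjusted p = 0.0124). The co-repressor gene TPL rose in Ler by 0.40 (SE 0.07), and JAZ6 fell by 0.47 in Ler and by 0.32 in Col. Of 9 transcription factor genes 0 rose and 0 fell in Ler, and 0 rose and 2 fell in Col. MYC4, a partner of MYC2, fell in Col by 0.37 (SE 0.10, adjusted p = 0.012) against a change of 0.25 in Ler (adjusted p = 0.0616), and its interaction of 0.61 passed (SE 0.14, adjusted p = 0.0245).

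Of 10 response genes 1 rose and 4 fell in Ler, and 0 rose and 0 fell in Col. The defensin copies PDF1.2b and PDF1.2c went with PDF1-2A in Ler, falling by 2.20 (SE 0.54, adjusted p = 0.0109) and 3.59 (SE 0.91, adjusted p = 0.0138). Their coding sequences are 93.8% and 93.4% identical to that of PDF1-2A, and no exact run of 100 bases over its exons is shared. The handling of reads close to several copies is not known here, and values of single copies carry that limit. TAT3, a tyrosine aminotransferase gene, rose in Ler by 3.17 (SE 0.95, adjusted p = 0.029), with 1.39 to 27.3 CPM in Ler prmt5-5 against 0.973 to 2.50 CPM in Ler WT.

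**Figure D2:**
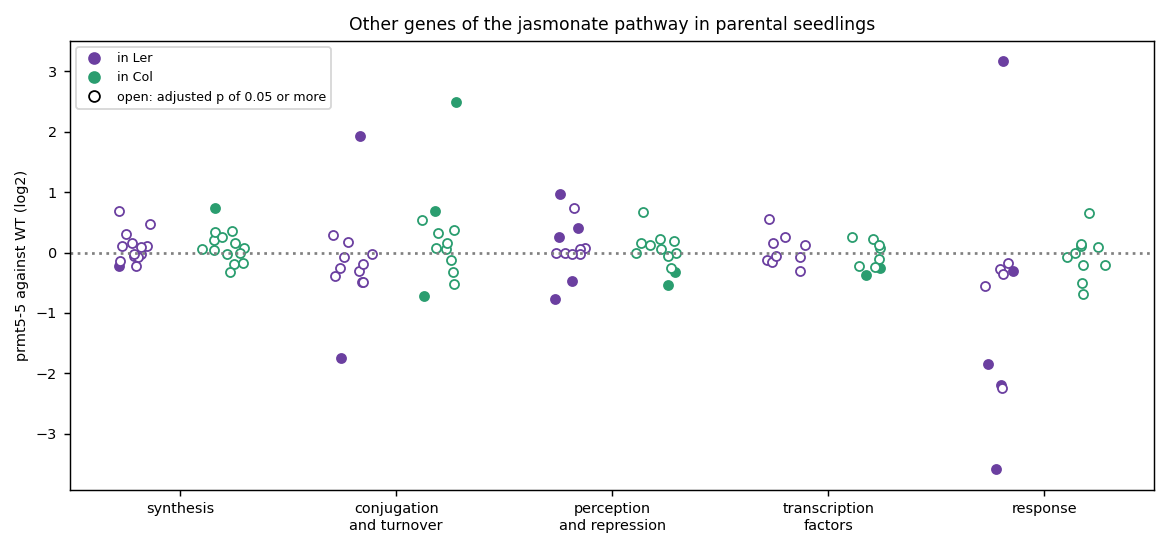
Change of prmt5-5 over WT (log2) for the 57 tested genes of the wider jasmonate lists, each point 1 gene, for Ler and Col, with filled points at an adjusted p under 0.05 (points are spread sideways for legibility). The response genes in Ler reach from -3.59 (PDF1.2c) to 3.17 (TAT3), while none of them is filled in Col.

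Some of the marker lists for other states and organs differed between the parental groups. The summed level of 9 salicylic acid markers (such as PR1, PR2 and PR5) was 253, 1171 and 871 CPM in Ler prmt5-5 and 121 to 196 CPM in Ler WT, against 133 to 180 CPM in Col prmt5-5 and 160 to 182 CPM in Col WT. Of these 9, 6 rose in Ler and 0 in Col. The sum of 6 touch and rapid wound genes (such as TCH4 and WRKY40) was 161 to 242 CPM in Ler prmt5-5 and 64.9 to 95.7 CPM in Ler WT, and 84.2 to 208 CPM in Col prmt5-5 and 69.5 to 91.6 CPM in Col WT, with 4 of 6 rising in Ler and 1 in Col. The sum of 6 leaf markers (such as RBCS1A and LHCB3) was 25531 to 31307 CPM in Ler prmt5-5 and 32969 to 37007 CPM in Ler WT, and 23717 to 26651 CPM in Col prmt5-5 and 28285 to 35033 CPM in Col WT, with 5 of 6 falling in Ler and 4 in Col. The sum of 9 root markers was 235 to 313 CPM in Ler prmt5-5 and 229 to 317 CPM in Ler WT, and 265 to 324 CPM in Col prmt5-5 and 237 to 306 CPM in Col WT. These sums overlapped, while 2 of the 9 genes fell in Ler and 1 in Col, and 0 rose. The sum of 5 flower organ identity genes (such as AP1 and AG) was low but separated all 4 groups, at 3.81 to 6.58 CPM in Ler prmt5-5 and 8.65 to 11.5 CPM in Ler WT, and at 0.834 to 1.27 CPM in Col prmt5-5 and 1.35 to 1.75 CPM in Col WT. Of these 5, 2 fell in Ler and 1 in Col. The sum of 5 seed markers was 0.729 to 8.25 CPM in Ler prmt5-5 and 0.306 to 6.55 CPM in Ler WT, which overlap, and 0.0498 to 0.272 CPM in Col prmt5-5 and 0.518 to 1.05 CPM in Col WT, which do not. None of the 3 seed markers tested passed in either accession. The part of these states or organs in the changes of VSP1, VSP2, OPR3 and PDF1-2A was not tested.

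In the F1 hybrids the level of a gene is the sum of its counts assigned to either allele, so CPM values cannot be set against those of the parents. In F1 Ler x Col 1 of 9 tested members passed the test for prmt5-5 against WT (13.4% of 17296 genes did, 7.02% higher and 6.38% lower). In F1 Col x Ler 0 of 9 passed (5.64% of genes did, 3.98% higher and 1.66% lower), 2 had an unadjusted p under 0.05, and DESeq2 called 1, OPR3. One library stands apart and touches several members, F1 Ler x Col WT replicate 2, which is also the deepest F1 library.

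VSP1 had 90.3, 60.7 and 119 CPM in F1 Ler x Col prmt5-5 against 83.4, 506 and 101 CPM in WT F1 Ler x Col. In F1 Col x Ler it had 106, 85.7 and 90.3 CPM in prmt5-5 against 82.8, 187 and 118 CPM in WT. The 506 CPM of F1 Ler x Col WT replicate 2 compare with 60.7 to 187 CPM in the other 11 F1 libraries. VSP2 behaved alike, with 298, 237 and 372 CPM in F1 Ler x Col prmt5-5 against 333, 1270 and 382 CPM in WT F1 Ler x Col, and with 393, 289 and 330 CPM in F1 Col x Ler prmt5-5 against 386, 477 and 384 CPM in WT F1 Col x Ler. In both crosses mutant and WT libraries overlapped. The change of VSP2 was -1.13 in F1 Ler x Col (SE 0.45, adjusted p = 0.138) and -0.30 in F1 Col x Ler (SE 0.45, adjusted p = 0.785), and that of VSP1 was -1.37 (SE 0.67, adjusted p = 0.229) and -0.46 (SE 0.66, adjusted p = 0.776). Without F1 Ler x Col WT replicate 2 the change in F1 Ler x Col came to -0.26 for VSP2 (adjusted p = 0.394) and to -0.06 for VSP1 (adjusted p = 0.929). The touch and rapid wound genes summed to 52.8 CPM in that library and to 45.8 and 58.3 CPM in the other two of its group, with 2 or 3 of the 6 genes at 0 in each.

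OPR3 had 106, 131 and 120 CPM in F1 Ler x Col prmt5-5 against 84.1, 149 and 77.7 CPM in WT F1 Ler x Col. In F1 Col x Ler it had 137, 131 and 143 CPM in prmt5-5 against 79.4, 78.7 and 91.8 CPM in WT. The F1 Col x Ler groups did not overlap, and those of F1 Ler x Col overlapped only through WT replicate 2. The change was 0.20 in F1 Ler x Col (SE 0.20, adjusted p = 0.557) and 0.72 in F1 Col x Ler (SE 0.20, adjusted p = 0.0542). Without F1 Ler x Col WT replicate 2 both passed, at 0.54 (SE 0.13, adjusted p = 0.0166) in F1 Ler x Col and 0.71 (SE 0.11, adjusted p = 0.00333) in F1 Col x Ler. The F1 Col x Ler change also passed without F1 Ler x Col WT replicate 3 (adjusted p = 0.0287), with DESeq2 (0.0198) and with no filter on low counts (0.0486).

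CORI3 had 171, 153 and 196 CPM in F1 Ler x Col prmt5-5 against 335, 441 and 195 CPM in WT F1 Ler x Col. All mutant libraries but 1 were below all WT libraries, and CORI3 fell by 0.90 (SE 0.23, adjusted p = 0.0191), the 1 call among the members. It was lost without F1 Ler x Col WT replicate 1 (-0.89, adjusted p = 0.054) or 2 (-0.62, adjusted p = 0.0551), and without F1 Ler x Col prmt5-5 replicate 1 or 2. In F1 Col x Ler the change was 0.08 (adjusted p = 0.889), with 306, 291 and 263 CPM in prmt5-5 and 302, 276 and 236 CPM in WT.

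The other members did not pass in either cross. AOS was at -0.38 in F1 Ler x Col (adjusted p = 0.2) and 0.31 in F1 Col x Ler (adjusted p = 0.394), LOX2 at -0.12 (adjusted p = 0.683) and 0.43 (adjusted p = 0.159), and MYC2 at -0.40 (adjusted p = 0.233) and 0.22 (adjusted p = 0.644). JAZ1 was at 0.66 (adjusted p = 0.47) in F1 Ler x Col and 0.75 (adjusted p = 0.533) in F1 Col x Ler. PDF1-2A spread from 7.53 to 13.9 CPM in F1 Ler x Col prmt5-5 and from 0.278 to 42.9 CPM in F1 Ler x Col WT, where replicate 1 held 2 counts, and from 8.03 to 31.5 CPM in F1 Col x Ler prmt5-5 and 7.23 to 23.9 CPM in WT F1 Col x Ler. JAZ10, under the filter, had 6, 8 and 6 counts in F1 Ler x Col prmt5-5 against 0, 8 and 4 counts in WT F1 Ler x Col, and 10, 8 and 10 counts in F1 Col x Ler prmt5-5 against 2, 2 and 1 counts in F1 Col x Ler WT. With no filter on low counts JAZ10 did not pass either. Its change was 1.53 in F1 Ler x Col (SE 0.80, adjusted p = 0.306) and 1.85 in F1 Col x Ler (SE 0.87, adjusted p = 0.344).

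**Figure D3:**
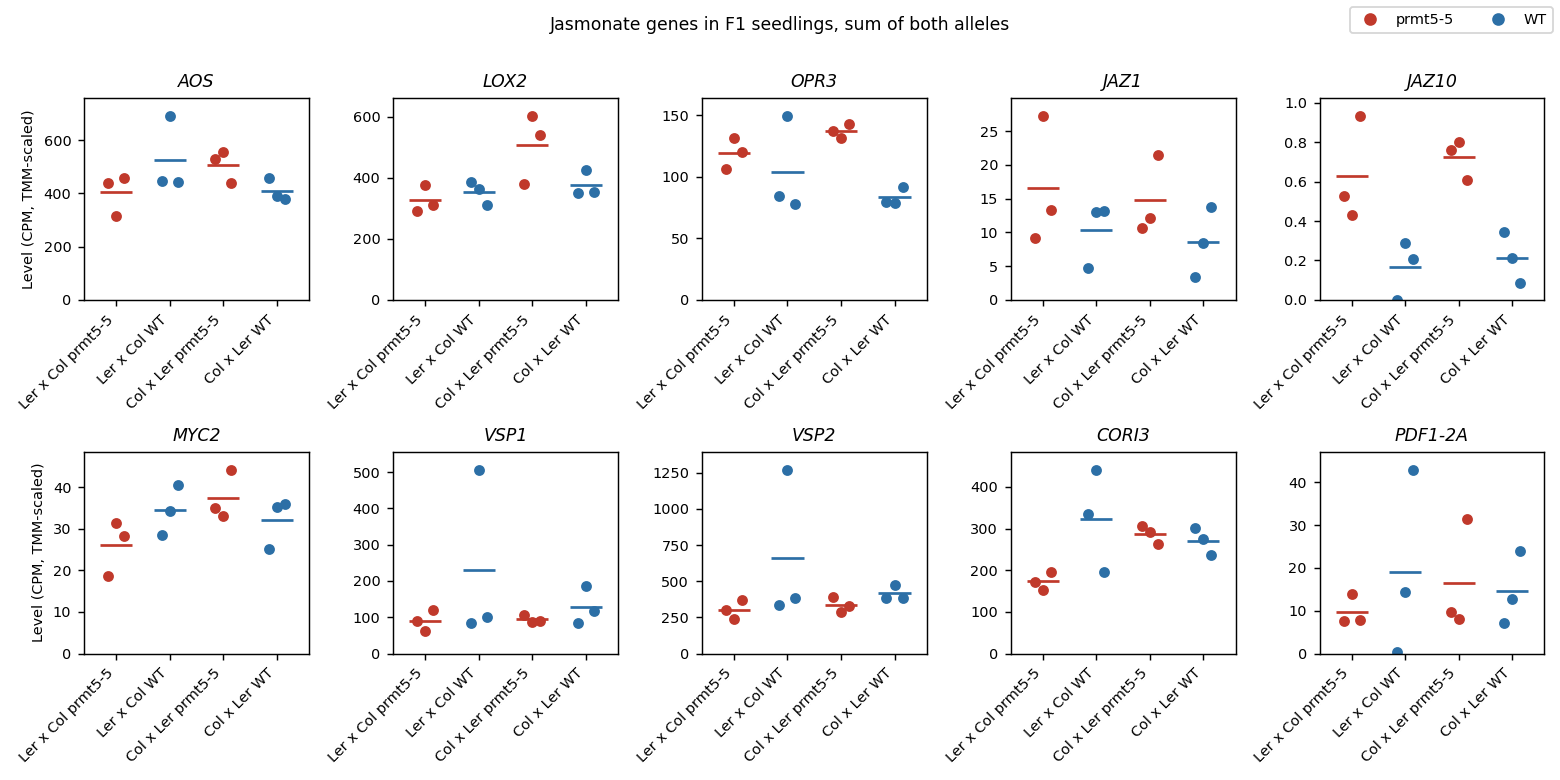
Levels of the 10 genes (CPM of both alleles summed, TMM-scaled, linear axes from 0) in the 3 libraries of each F1 group, with the group mean as a line. In VSP1 and VSP2, 1 WT library of F1 Ler x Col (506 and 1270 CPM) lies above every other F1 library.

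The crosses were also set against each other. The prmt5-5 effect in F1 Ler x Col minus that in F1 Col x Ler passed in 0 of 9 members (0% of all genes, and 0 members by DESeq2), with 3 at an unadjusted p under 0.05: CORI3 (-0.98, SE 0.32), AOS (-0.70, SE 0.26) and LOX2 (-0.55, SE 0.23), each at an adjusted p of 0.951. F1 Ler x Col against F1 Col x Ler passed in 0 of 9 members in prmt5-5 (0.0231% of all genes), where 3 had an unadjusted p under 0.05 and DESeq2 called LOX2. LOX2 was at 291, 376 and 310 CPM in F1 Ler x Col prmt5-5 and 381, 601 and 539 CPM in F1 Col x Ler prmt5-5, a difference of -0.64 (SE 0.16, adjusted p = 0.305). In WT 0 of 9 passed (0% of all genes), 0 had an unadjusted p under 0.05 and DESeq2 called 0.

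Leaf markers were lower in the mutants of both crosses as well, at 11097 to 21691 CPM in F1 Ler x Col prmt5-5 and 24382 to 38892 CPM in WT F1 Ler x Col, and at 14296 to 19686 CPM in F1 Col x Ler prmt5-5 and 29691 to 39119 CPM in WT F1 Col x Ler. Salicylic acid markers ranged from 263 to 1360 CPM in F1 Ler x Col prmt5-5 and from 230 to 474 CPM in WT F1 Ler x Col, and from 354 to 1215 CPM in F1 Col x Ler prmt5-5 and 257 to 680 CPM in WT F1 Col x Ler. Their part in the F1 values was not tested. Of 48 wider jasmonate genes tested, 0 rose and 5 fell in F1 Ler x Col (7.02% and 6.38% of all genes did), and 1 rose and 0 fell in F1 Col x Ler (3.98% and 1.66% of all genes did). The 5 were JAZ3 (-0.99, adjusted p = 0.00214), MYC4 (-0.62, adjusted p = 0.00337), CYP94B1 (-1.23, adjusted p = 0.033), the jasmonate methyltransferase gene JMT (-1.1, adjusted p = 0.0291) and the lectin gene JR1 (-0.58, adjusted p = 0.0422), and the 1 was the amidohydrolase gene ILL6 (1.00, adjusted p = 0.0169). These 6 are all the calls, so they were named after their values were seen.

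Within an F1 seedling both alleles share the same cells, and the allele counts estimate the RNA of each copy. The rule that gave F1 reads to an allele is not known here, so allelic differences carry that limit. In prmt5-5 F1, 4 of 9 members differed between the Ler and Col alleles (2 higher and 2 lower from Ler, where 33.3% of 16639 genes were called, 14.6% higher and 18.7% lower), and in WT F1, 5 of 9 did (1 higher and 4 lower, where 30% were called, 14.1% higher and 15.9% lower). The Ler share is the percentage of a gene's allele counts that were assigned to Ler.

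Most allele counts of VSP2 were assigned to Col. Its Ler share was 29.9%, 27.9% and 28.2% in F1 Ler x Col prmt5-5 against 21.1%, 27.4% and 20.1% in F1 Ler x Col WT. In F1 Col x Ler it was 30.2%, 26.3% and 29.8% in prmt5-5 against 19.9%, 20.9% and 17.1% in WT. Every library was under 50%, and the genotypes overlapped only through F1 Ler x Col WT replicate 2 (27.4%), the library with the highest VSP2. The Ler allele was lower than the Col allele by 1.31 on the log2 scale in prmt5-5 (SE 0.08, adjusted p = 2.03e-06) and by 1.91 in WT (SE 0.09, adjusted p = 1.63e-07), and both calls were kept under all 15 alternatives.

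CORI3 went the other way, with a mean Ler share of 68.6% ± 2.82 in prmt5-5 F1 and 65.9% ± 2.31 in WT F1 (SD, n = 6 each). All 12 libraries were over 50%, from 64.8% to 72.9% in prmt5-5 and from 63.4% to 70.2% in WT. The Ler allele was higher by 1.13 in prmt5-5 (SE 0.04, adjusted p = 9.28e-21) and by 0.95 in WT (SE 0.04, adjusted p = 1.16e-18). VSP1, the neighbour and relative of VSP2, was near balance at 51.9% ± 3.91 in prmt5-5 F1 and 45.6% ± 7.56 in WT F1 (SD, n = 6 each), and its alleles did not pass the test in either genotype (0.10, adjusted p = 0.655 in prmt5-5; -0.27, adjusted p = 0.215 in WT). Without F1 Col x Ler WT replicate 1 the WT difference of VSP1 was -0.39 and passed (adjusted p = 0.0381).

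PDF1-2A had a mean Ler share of 18.1% ± 4.39 in prmt5-5 F1 and 16.9% ± 8.50 in WT F1 (SD, n = 6 each), on 1122 and 1666 counts in all. One of the 6 WT values, 0% in F1 Ler x Col WT replicate 1, rests on 2 counts and allows a share of up to 100%, while the other 5 were 18.2% to 23.8% and the share of all WT counts pooled was 20.4%. The Ler allele was lower by 2.12 in prmt5-5 (SE 0.15, adjusted p = 1.68e-15) and by 1.95 in WT (SE 0.14, adjusted p = 1.29e-14), with calls kept under all 15 alternatives. The copies of PDF1-2A limit this reading: of PDF1.2b counts, 0 of 318 in prmt5-5 F1 and 1 of 329 in WT F1 were assigned to Ler, although Ler WT seedlings had 11.2 ± 5.25 CPM of PDF1.2b and Col WT seedlings 0.964 ± 0.206 CPM (SD, n = 3 each). The part of the allele assignment in the share of PDF1-2A was not tested.

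Small allelic differences were called in the deeply counted synthesis genes. LOX2 had a mean Ler share of 49.3% ± 0.845 in prmt5-5 F1 and 48.5% ± 1.1 in WT F1, and AOS 51.3% ± 1.39 and 51.1% ± 0.711 (SD, n = 6 each). The LOX2 difference of -0.09 in WT (SE 0.03, adjusted p = 0.0159) was lost with DESeq2, without F1 Col x Ler WT replicate 2 or without F1 Ler x Col WT replicate 3, and the AOS difference of 0.07 in prmt5-5 (SE 0.03, adjusted p = 0.0264) with DESeq2 or without F1 Col x Ler prmt5-5 replicate 1, F1 Col x Ler prmt5-5 replicate 2 or F1 Ler x Col prmt5-5 replicate 3 (adjusted p up to 0.201). JAZ1 and MYC2 did not pass in either genotype, with mean Ler shares of 51.4% and 49.6% in prmt5-5 F1 and of 50.1% and 52.1% in WT F1. JAZ10 had 32 of 48 counts from Ler in prmt5-5 F1 and 12 of 17 in WT F1. With no filter on low counts its alleles did not pass (1.06, SE 1.03, adjusted p = 0.638 in prmt5-5; 1.24, SE 1.39, adjusted p = 0.75 in WT).

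**Figure D4:**
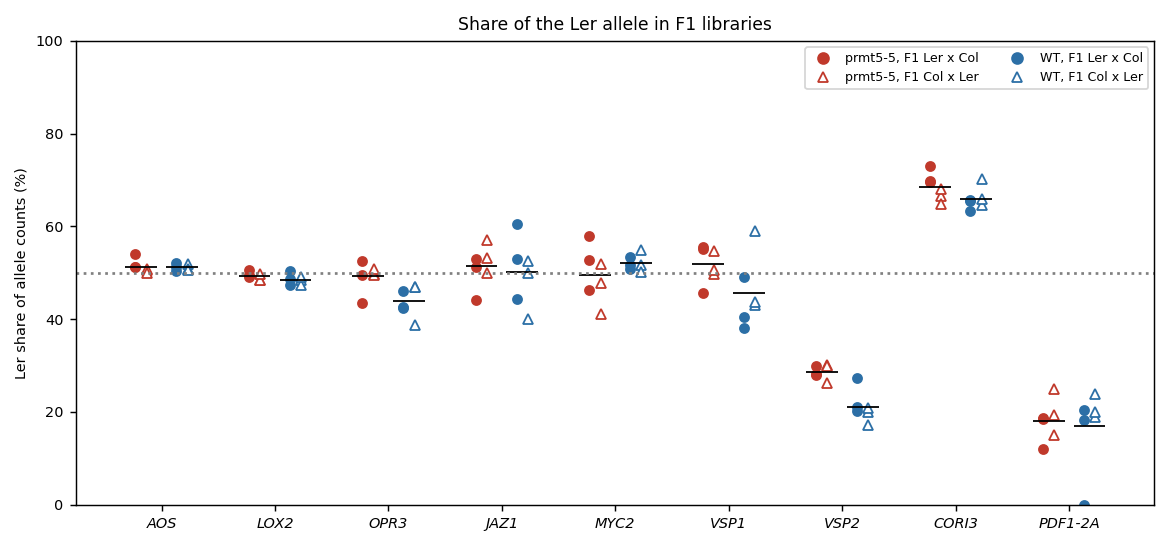
Share of allele counts from Ler (percent) for 9 genes in each of the 12 F1 libraries, with circles for F1 Ler x Col, triangles for F1 Col x Ler, black lines for the mean of 6 libraries and a dotted line at equal shares. CORI3 lies above and VSP2 lies below equal shares in every library, as does PDF1-2A apart from 1 WT library with 2 counts, whose share is not known, and VSP2 lies higher in prmt5-5 (26.3% to 30.2%) than in all WT libraries but the one at 27.4%.

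Did prmt5-5 change the allele ratio itself? It did so past the threshold in 2 of 9 members, both toward Ler, where 3.93% of all genes were called (1.12% toward Ler, 2.81% toward Col). VSP2 shifted by 0.60 (SE 0.12, adjusted p = 0.0262), with a mean Ler share of 28.7% ± 1.52 in prmt5-5 F1 and 21.1% ± 3.39 in WT F1 (SD, n = 6 each). On levels, the Ler allele of VSP2 had 86.7 ± 19.5 CPM in F1 Ler x Col prmt5-5 and 165 ± 158 CPM in WT F1 Ler x Col, and 97.7 ± 21.4 CPM in F1 Col x Ler prmt5-5 and 80.8 ± 17.5 CPM in WT F1 Col x Ler. The Col allele of VSP2 had 216 ± 48.8 CPM in F1 Ler x Col prmt5-5 and 497 ± 369 CPM in WT F1 Ler x Col, and 239 ± 31.2 CPM in F1 Col x Ler prmt5-5 and 335 ± 37.1 CPM in WT F1 Col x Ler (SD, n = 3 each). In F1 Col x Ler the Ler allele thus overlapped between genotypes, while every mutant library was below every WT library for the Col allele.

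OPR3 shifted by 0.31 (SE 0.08, adjusted p = 0.0285). Its Ler share was 49.5%, 52.5% and 43.5% in F1 Ler x Col prmt5-5 against 42.6%, 42.4% and 46.0% in WT F1 Ler x Col, and 49.7%, 49.5% and 50.7% in F1 Col x Ler prmt5-5 against 38.8%, 46.9% and 46.9% in F1 Col x Ler WT. The genotypes overlapped in F1 Ler x Col and not in F1 Col x Ler. Both calls depend on most single libraries. The VSP2 shift was lost without any 1 of 9 libraries (all but F1 Col x Ler WT replicate 2, F1 Ler x Col WT replicate 2 and F1 Col x Ler prmt5-5 replicate 2; adjusted p from 0.0541 to 0.0754 when lost), and without F1 Ler x Col WT replicate 2 it was 0.70 (SE 0.06, adjusted p = 8.8e-08). The OPR3 shift was lost with DESeq2 (adjusted p = 0.107) and without F1 Col x Ler WT replicate 1 (0.104), F1 Ler x Col WT replicate 1 (0.0855) or 2 (0.105), any 1 library of F1 Col x Ler prmt5-5 (0.0589, 0.0653 and 0.0786), or F1 Ler x Col prmt5-5 replicate 1 (0.0572) or 2 (0.123). CORI3 shifted the same way by 0.18 (SE 0.06) and did not pass (adjusted p = 0.075), but it passed with no filter on low counts (0.0155) and without F1 Col x Ler WT replicate 1 (0.00335), F1 Col x Ler prmt5-5 replicate 3 (0.0415) or F1 Ler x Col prmt5-5 replicate 2 (0.0421).

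The last comparison set the parental difference, Ler against Col, beside the allelic difference in F1. In prmt5-5, 5 of 10 members had a parental difference lower than the allelic one (9.86% of 21512 genes tested were called, 6.07% higher and 3.8% lower), and in WT 5 of 10 did (11% of 21653 were called, 5.45% higher and 5.57% lower). VSP2 was at -3.11 between the parents and -1.31 between the alleles in prmt5-5, a gap of -1.80 (SE 0.11, adjusted p = 4.74e-09), and at -2.89 and -1.91 in WT, a gap of -0.98 (SE 0.19, adjusted p = 0.00344). For VSP2, part of the parental difference was thus also seen between the allele counts in F1. CORI3 had opposite signs, with -0.59 between the parents and 1.13 between the alleles in prmt5-5 (gap -1.71, SE 0.13, adjusted p = 1.25e-07) and -0.27 and 0.95 in WT (gap -1.22, SE 0.13, adjusted p = 1.67e-06).

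For VSP1 the parents differed by -1.64 in prmt5-5 and the alleles by 0.10, a gap of -1.74 (SE 0.20, adjusted p = 2.41e-05), and in WT by -1.13 and -0.27, a gap of -0.86 (SE 0.23, adjusted p = 0.0291). The WT call of VSP1 was lost without Ler WT replicate 1, 2 or 3 and with no filter on low counts (adjusted p up to 0.08). LOX2 had a gap of -1.06 in prmt5-5 (SE 0.27, adjusted p = 0.0397) and -0.91 in WT (SE 0.25, adjusted p = 0.0465), each call lost under 11 of 16 alternatives. AOS had a gap of -0.81 in prmt5-5 (SE 0.10, adjusted p = 2.64e-05) and of -0.31 in WT (adjusted p = 0.106), while OPR3 had -0.45 in prmt5-5 (adjusted p = 0.078) and -0.48 in WT (SE 0.11, adjusted p = 0.00541). PDF1-2A, with a gap of -0.59 in prmt5-5 (adjusted p = 0.55) and 2.31 in WT (SE 1.01, adjusted p = 0.224), and JAZ1, JAZ10 and MYC2 did not pass in either genotype. The gap of PDF1-2A in WT passed with the replicate block (2.19, SE 0.20, adjusted p = 4.71e-07), which in this fit covers the parental columns only. Within each WT group PDF1-2A was lowest in replicate 1, at 5.15 CPM in Ler, 5.95 in Col, 0.278 in F1 Ler x Col and 7.23 in F1 Col x Ler. In prmt5-5, replicate 1 was the highest in Ler (2.81 CPM) and in Col (22.9 CPM). It was the lowest in F1 Ler x Col prmt5-5 (7.53 CPM) and the middle value in F1 Col x Ler prmt5-5 (9.74 CPM). Whether replicates of 1 number share a batch was not tested. Some gaps passed with 1 library left out: PDF1-2A in WT without Ler WT replicate 1 (2.79, adjusted p = 0.0464), AOS in WT without Col WT replicate 2 (0.0183) or Ler WT replicate 1 (0.0464), and OPR3 in prmt5-5 without Ler prmt5-5 replicate 2 (0.0322) or F1 Ler x Col prmt5-5 replicate 3 (0.0459). Parents and F1 were counted in different ways, and the part of the counting in these gaps was not tested.

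**Figure D5:**
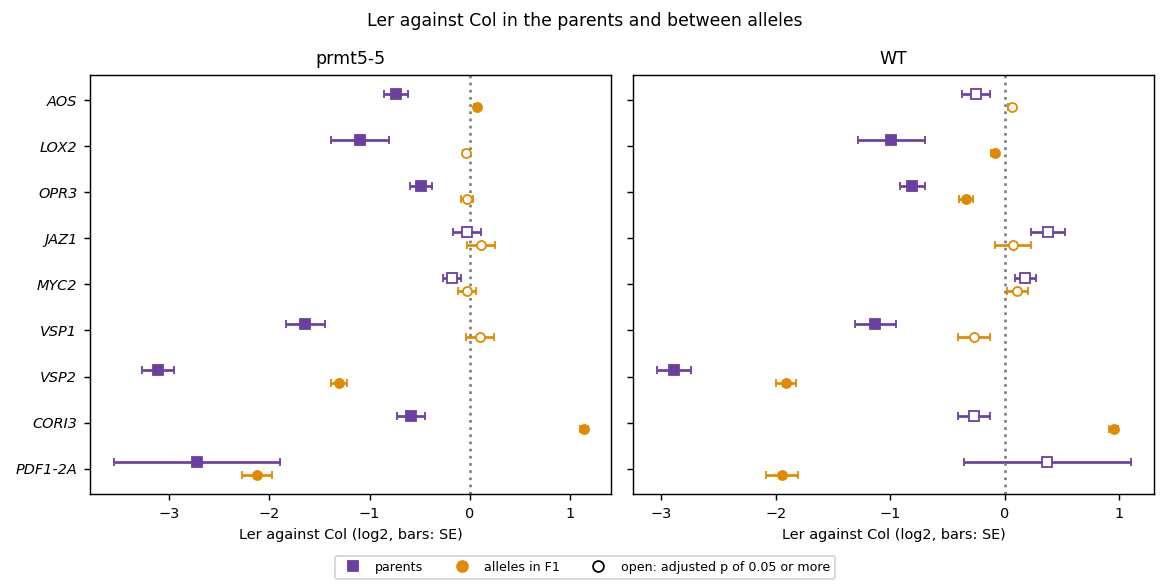
Difference of Ler against Col (log2, bars show the SE) between parental seedlings (squares) and between alleles in F1 (circles) for 9 genes, in prmt5-5 and in WT, with filled points at an adjusted p under 0.05. For VSP2 both lie below 0, at -3.11 and -1.31 in prmt5-5 and at -2.89 and -1.91 in WT, whereas the CORI3 alleles lie above 0 at 1.13 and 0.95.

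Per kilobase of exon, LOX2 was the most abundant member in every parental group (255 CPM per kb in Ler prmt5-5, 200 in Ler WT, 547 in Col prmt5-5 and 397 in Col WT). VSP2 ranked differently by accession, at 14 CPM per kb in Ler prmt5-5 and 26.5 in Ler WT, against 121 in Col prmt5-5 and 197 in Col WT. Across the 12 parental libraries the log2 levels of VSP1 and VSP2 had a Pearson correlation of 0.94, and across the 12 F1 libraries of 0.97. Likeness was taken as the lower of the correlations over 12 parental and over 12 F1 libraries. It was ranked among 15611 genes with a mean of at least 1 CPM, with the members left out. After VSP1, the genes most like VSP2 were AT3G19370 (0.902), NET4B (0.857) and MBP2 (0.857). Those most like LOX2 were MAM1 (0.827), AT5G43740 (0.792) and AT2G39280 (0.791), and those most like PDF1-2A were AT5G12420 (0.776), AT5G40670 (0.772) and ROH1 (0.762). The libraries share accession, genotype and depth, so these values are descriptions only.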

How the data were processed

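Per the labels' protocols, polyadenylated RNA of entire seedlings was made into TruSeq libraries and sequenced. Per the submitters' processing notes, the tools were Trim Galore, FastQC and STAR 2.7.9a, with TAIR10 as genome build. How reads were counted, with which annotation and strand setting, and how F1 reads were given to an allele: not given in the sources used here. Files deposited by the authors hold raw counts for each gene, with 1 column per parental library and 2 columns, Col and Ler allele, per F1 library. Of allele counts from 1 to 20, 75.4% were even, so a fragment may have been counted by both ends, and an interval computed from counts, which covers only counting error, is then narrower than it should be.

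Counts were tested with edgeR 4.0.16 in R 4.3.3 (quasi-likelihood test, robust fit, TMM, filterByExpr) with Benjamini-Hochberg adjustment over all genes tested. The 12 parental libraries were fitted together, as were the summed alleles of the 12 F1 libraries. For the alleles, each library was its own block over its 2 columns, with 1 allele effect per group, averaged over the crosses. Parental and allelic differences were compared within each genotype in a joint fit. The procedure was tested on simulated data, with the same spread set for every gene and both alleles of a library drawn separately. Simulated alleles were under their real depth, and 14722 genes passed the filter there, against 16639 in the real fit. The procedure found 74% of log2 changes of 1 for prmt5-5 in Col and 51% for the allele ratio. The 51% therefore does not give the sensitivity of the real allele test. Changes under 1 were not simulated. Alternatives were DESeq2 1.42.0, RLE normalisation, no filter on low counts, the replicate block and leaving out each library in turn. Same-numbered prmt5-5 and WT libraries of a background correlated above 0.1 in 5 of 12 pairs (-0.408 to 0.547), which is no general pairing by number. Libraries of different backgrounds were not compared, so a batch shared by number was not tested. Levels are CPM after TMM with standard deviations. Members and gene lists were chosen with earlier results of these data known. All 10 members were reported, and of each wider list the genes named came from the 4 with the smallest p per parental comparison, apart from the F1 calls. Positions and promoters are from RefSeq, TAIR10.1.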

Additional observations from a re-analysis of the deposited data

Results flagged for a closer look

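The effect of prmt5-5 differed past the threshold between the alleles of 2 members, by a test of the difference itself. The ratio of the Ler allele to the Col allele of VSP2 was higher in prmt5-5 F1 than in WT F1, with a log2 difference of 0.60 (SE 0.12, adjusted p = 0.0262, edgeR's quasi-likelihood test). The same ratio of OPR3 was higher by 0.31 (SE 0.08, adjusted p = 0.0285). The Ler share of VSP2 was 26.3% to 30.2% in the 6 prmt5-5 F1 libraries and 17.1% to 27.4% in the 6 WT F1 libraries, and that of OPR3 was 43.5% to 52.5% in prmt5-5 F1 and 38.8% to 46.9% in WT F1. For VSP2 the adjusted p lay between 8.8e-08 and 0.0754 over 15 alternatives, and for OPR3 between 0.00227 and 0.123. Each of the 2 calls was lost under 9 of the 15.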

How the results depend on the processing

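Of 41 member values past the threshold, 26 kept their call under every alternative run, 0 reversed with a call, and 82 of 645 alternatives lost one. Of 1598 alternatives of values not past it, 56 changed sign with neither value called. With DESeq2 the count of members went to 1 in the interaction (PDF1-2A) and to 1 in F1 Col x Ler (OPR3), each against 0. Between the crosses in prmt5-5 it went to 1 (LOX2) against 0, and for the allele ratio to 1 against 2. Between Ler and Col in WT it went to 5 against 4. For the allelic difference it went to 4 against 5 in WT F1 and to 3 against 4 in prmt5-5 F1. With no filter on low counts it went to 2 against 3 in Col and to 7 against 8 between Ler and Col in prmt5-5. In F1 Col x Ler it went to 1 against 0, and for the allele ratio to 3 against 2. For the parental minus allelic difference it went to 3 against 5 in WT and to 4 against 5 in prmt5-5. Leaving out 1 library gave 1 to 4 members in Col (3 with all), 0 to 1 in the interaction and in either F1 cross, and 0 to 2 for the allele ratio. The cause was not tested. With the replicate block, 2 members were called in Col against 3 (VSP1 lost) and 7 between Ler and Col in prmt5-5 against 8 (PDF1-2A lost). For the parental minus allelic difference in WT the block kept the count at 5 but lost LOX2 (adjusted p = 0.0587) and gained PDF1-2A (adjusted p = 4.71e-07). Pooled over libraries, the WT Ler share of VSP2 was 24.5%, against a mean of 21.1%, and 19 of 20 shares moved by less than 1 SD. The block is no evidence of pairing, since same-numbered libraries showed no general pairing and a batch shared by number was not tested. The allele fits already hold a library block.

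Over all genes, the interaction had 768 calls, 1633 with DESeq2 and 373 to 1751 with 1 library left out. F1 Col x Ler had 975, 1466 with DESeq2 and as few as 378 with 1 library left out, and F1 Ler x Col had 2317, and 1301 without F1 Ler x Col prmt5-5 replicate 3. The difference of the F1 effects had 0, and 10 with DESeq2. Between the crosses, WT had 0, and 1 with DESeq2, with no filter on low counts and with the replicate block, while prmt5-5 had 4, 101 with DESeq2, 7 with no filter and 1 with the block. JAZ10 had too few F1 counts for an allelic difference to be detectable at this depth. PDF1-2A had too few in 1 library, F1 Ler x Col WT replicate 1 with 2 counts, while its allelic difference was called in both genotypes.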
